A study of Mus musculus with 9 samples.

Results

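The class II genes described here encode, or are annotated as, parts of the machinery of MHC class II: the invariant chain gene Cd74, the I-A chains H2-Aa and H2-Ab1, the I-E chains H2-Ea-ps and H2-Eb1, and the H2-DM genes H2-Dma and H2-DMb2. They were taken by name, 7 of the 770 genes of the table, and are described in all 9 samples. RNA of sorted T cell subsets was hybridised to a reporter probe with a barcode and a capture probe with biotin for each gene, and 1 sample was measured per tissue and subset. The CD4CD8 sample came from the intraepithelial lymphocytes of the gut, a tissue called epithelium for short. CD8 and CD4 samples came from intraepithelial lymphocytes, small-intestinal lamina propria, mesenteric lymph nodes and peripheral lymph nodes. All mice were on the B10.RIII background. The labels describe wild type mice, and mice lacking Rag2 and IRBP with the R161H T cell receptor (Rag2-/- IRBP-/- R161H), and say that mice were immunized with a retinal IRBP peptide in complete adjuvant. Wild type mice received an oral mixture of ampicillin, metronidazole, neomycin, vancomycin and gentamicin for a short or a long time before immunization. No label ties a sample to a genotype, an antibiotic arm, an age or a number of mice, so only tissues and subsets are compared. There are no replicates, and each value below is from 1 sample.

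MHC class II molecules are pairs of an alpha and a beta chain that present peptides to the T cell receptor of CD4 T cells. In the mouse there are the I-A pair (H2-Aa with H2-Ab1) and the I-E pair (H2-Ea with H2-Eb1), which assemble with the invariant chain Cd74, a chaperone that blocks the peptide groove and steers the complex to endosomes. There H2-DM, a pair of H2-DMa with a DMb chain, exchanges the last fragment of the invariant chain for peptides. B cells, dendritic cells and macrophages are the best known sources of these transcripts, gut epithelium can make them, and mouse T cells are generally described as making little. The coactivator Ciita drives the genes through factors bound at the X and Y boxes of their promoters.

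Apart from Cd74, the members lie on chromosome 17, in the major histocompatibility complex, in the RefSeq annotation of GRCm38.p6. H2-Ea-ps matched H2-Ea there through a synonym, annotated as a transcribed pseudogene in that C57BL/6J assembly, and H2-Dma matched H2-DMa. Promoters of 4 members were searched, H2-Aa, H2-Eb1, H2-DMb2 and H2-Dma, and those of Cd74, H2-Ab1 and H2-Ea were not. The 3 that held the box letters are shown. The letters are those of the C57BL/6J assembly and were not checked in the B10.RIII strain of the samples. Each is the 150 bases before the RefSeq start, 5′ to 3′ on the gene's strand, and capitals mark GATTGG or its other strand CCAATC (the core of a Y box), GATGATG (part of an X box) and TGACGTCA (an X2 palindrome).
H2-Aa (chr17:34287824-34287973, minus strand): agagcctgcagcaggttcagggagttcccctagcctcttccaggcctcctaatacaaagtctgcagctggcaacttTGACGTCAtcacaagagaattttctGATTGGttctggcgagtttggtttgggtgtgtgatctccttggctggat
H2-Eb1 (chr17:34305717-34305866, plus strand): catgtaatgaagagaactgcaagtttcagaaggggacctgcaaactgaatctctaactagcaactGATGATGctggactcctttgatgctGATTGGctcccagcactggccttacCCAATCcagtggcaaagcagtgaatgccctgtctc
H2-DMb2 (chr17:34145099-34145248, plus strand): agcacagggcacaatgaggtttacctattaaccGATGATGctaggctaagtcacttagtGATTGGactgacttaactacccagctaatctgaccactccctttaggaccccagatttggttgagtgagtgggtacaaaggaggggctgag
In these promoters 17, 18 and 19 bases separated the X letters from GATTGG in H2-Aa, H2-Eb1 and H2-DMb2. The letters were chosen after the sequences had been read, and both strands were searched, CATCATC being the other strand of GATGATG. Over all 32851 RefSeq promoter windows, searched over the same 150 bases, 10.9% held the Y letters, 1.80% held GATGATG, 1.36% held TGACGTCA, and 0.365% held the Y letters with either of the others. The windows before both starts of H2-Dma had 0 matches to these letters.

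Values are log2 normalized counts as deposited, with a floor of 4.32, the log2 of 20. The lowest listed value above the floor, called the limit here, was 6.30 in intraepithelial CD4, 5.05 to 5.59 in the other intraepithelial samples and lamina propria CD8, and 4.34 to 4.38 in the other 5 samples, so a gene at the floor has only that bound. Between 336 and 474 genes were above the floor per sample. The subset labels held: Cd8a ran from 9.62 to 11.29 in CD8 samples and was at the floor in CD4 samples, while Cd4 was at the floor in CD8 samples and 9.14 to 9.80 in CD4 samples. In the CD4CD8 sample Cd8a was 11.50, Cd4 10.06 and Cd8b1 at the floor. Probes differ in efficiency, and they may match the strain's alleles unequally, so levels are compared between samples and not between genes.

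Cd74, the invariant chain, was above the floor in every sample and spanned 4.23 log2, about 18.8-fold. In the epithelium it was 9.68 in CD4CD8, 6.96 in CD8 and 9.84 in CD4 cells. It was 9.51 in lamina propria CD8, 10.90 in lamina propria CD4, 8.33 in mesenteric CD8, 9.15 in mesenteric CD4, 6.67 in peripheral CD8 and 8.10 in peripheral CD4. The highest sample was therefore lamina propria CD4 and the 2 lowest were the CD8 samples of the peripheral nodes and the epithelium. Of the 8 steps between neighbours in that order, 5 were smaller than the residual SD of the fit described below (0.62 log2).

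The I-A alpha chain H2-Aa was also above the floor everywhere and spanned 3.44 log2. In the epithelium it was 8.75 in CD4CD8, 6.09 in CD8 and 8.99 in CD4 cells. It was 8.33 in lamina propria CD8, 9.11 in lamina propria CD4, 7.45 in mesenteric CD8, 7.87 in mesenteric CD4, 5.67 in peripheral CD8 and 6.48 in peripheral CD4. Its partner H2-Ab1, the I-A beta chain, was at the floor in intraepithelial CD8 and peripheral CD8. In the others it was 7.39 in intraepithelial CD4CD8, 7.11 in intraepithelial CD4 cells, 7.18 in lamina propria CD8, 7.78 in lamina propria CD4, 5.92 in mesenteric CD8, 6.58 in mesenteric CD4 and 5.11 in peripheral CD4. Both chains were highest in lamina propria CD4, and the samples where H2-Ab1 was at the floor were the 2 lowest for H2-Aa. For H2-Aa 7 of the 8 neighbouring steps, and for H2-Ab1 6, were within the residual SD of 0.80 and 0.75 log2.

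The probe for the I-E alpha chain locus, H2-Ea-ps, read 7.45 in CD4CD8, 5.12 in CD8 and 8.02 in CD4 cells of the epithelium. Elsewhere it read 7.22 in lamina propria CD8, 7.76 in lamina propria CD4, 6.31 in mesenteric CD8, 6.99 in mesenteric CD4, 4.38 in peripheral CD8 and 5.07 in peripheral CD4. It was highest in intraepithelial CD4 and near the floor in peripheral CD8. The I-E beta chain H2-Eb1 was above the floor in 5 samples: 5.72 in intraepithelial CD4CD8, 5.91 in lamina propria CD8, 6.61 in lamina propria CD4, 4.90 in mesenteric CD8 and 5.55 in mesenteric CD4. In intraepithelial CD4 its floor value says only that it was under the limit of 6.30, and in peripheral nodes that it was under 4.34 to 4.35. Of the 8 neighbouring steps, 7 for H2-Ea-ps and 5 for H2-Eb1 were within the residual SD, 0.80 and 0.28 log2.

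In 4 samples the low values fell on whole multiples of 1 count, which gives the counting error. H2-Ea-ps in intraepithelial CD8 rested on 21 counts (95% exact Poisson interval 4.43 to 5.74 log2) and in intraepithelial CD4 on 66 counts (7.65 to 8.37). Cd74 rested on 75 counts in intraepithelial CD8 (6.61 to 7.29) and 233 in intraepithelial CD4 (9.65 to 10.03). The intervals of these 2 subsets did not overlap for either gene. They cover counting error only, and the depth of the other 5 samples is unknown.

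**Figure D1:**
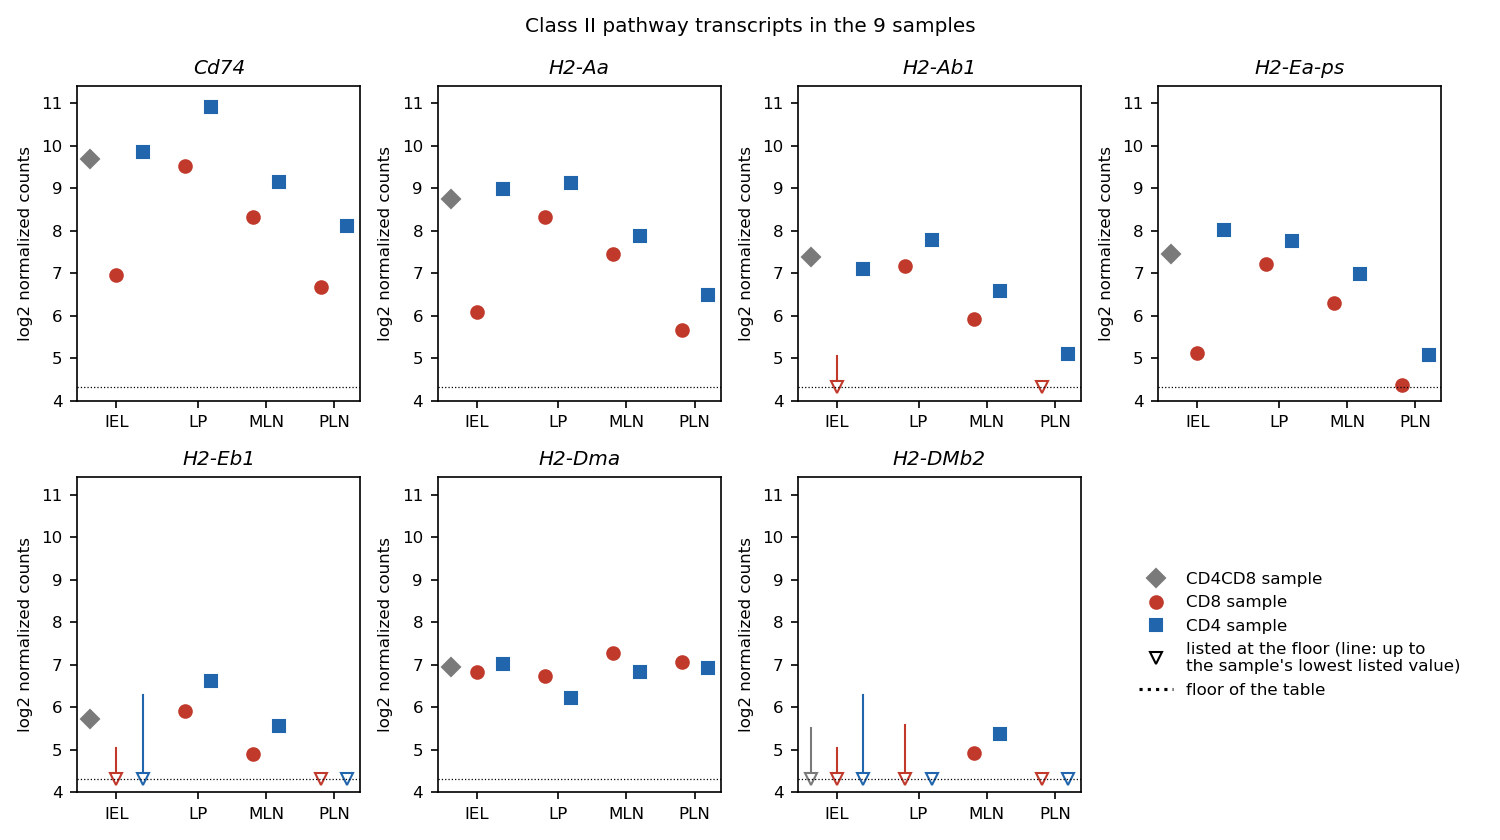
Level of each member (y axis, log2 normalized counts) in the 9 samples, grouped on the x axis by tissue: intraepithelial (IEL), lamina propria (LP), mesenteric node (MLN) and peripheral node (PLN). Diamonds are the CD4CD8 sample, circles CD8 and squares CD4, and open triangles are values at the floor of 4.32 with a line up to that sample's limit. Cd74, H2-Aa, H2-Ab1 and H2-Ea-ps share 1 profile with its high points in the lamina propria and in the intraepithelial CD4 and CD4CD8 samples, while H2-Dma stays between 6.22 and 7.27.

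The chains and Cd74 moved together across the samples. H2-Aa minus H2-Ea-ps stayed between 0.88 and 1.41 log2 in all 9 samples (SD 0.19), while each gene by itself spanned more than 3 log2. H2-Aa minus H2-Ab1 stayed between 1.15 and 1.88 in the 7 samples with both above the floor (SD 0.23). H2-Aa minus H2-Eb1 ran from 2.32 to 3.03 in 5 samples. In intraepithelial CD4, where H2-Eb1 was at the floor, it was at least 2.69. That is a lower bound, so whether the difference there stayed within that range is not known. Cd74 kept pace less closely, since Cd74 minus H2-Aa ran from 0.85 in intraepithelial CD4 to 1.79 in lamina propria CD4 (SD 0.35). Pearson's r with H2-Aa was 0.990 for H2-Ea-ps and 0.969 for Cd74 over 9 samples, given as a description since the samples share tissues and scaling. The class I genes H2-K1 and H2-D1, measured on the same panel, spanned 0.42 and 0.43 log2 over the 9 samples.

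**Figure D2:**
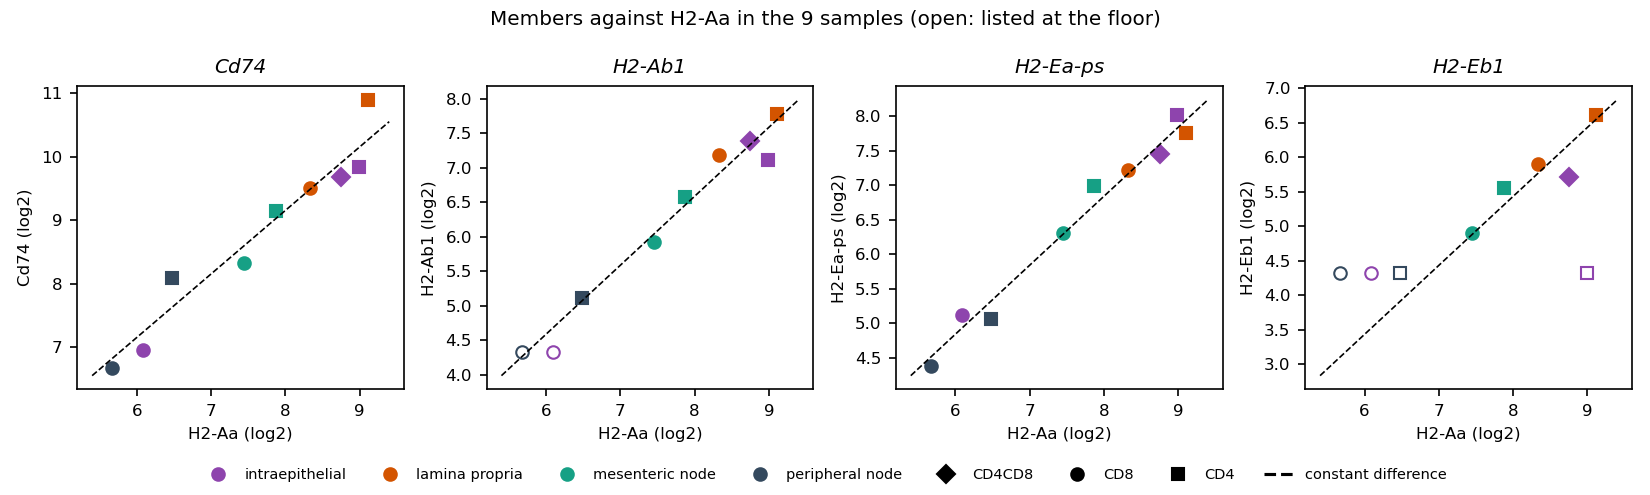
Cd74, H2-Ab1, H2-Ea-ps and H2-Eb1 (y axes, log2) against H2-Aa (x axis, log2) in the 9 samples. Colour is the tissue, shape the subset, open symbols are values at the floor, and the dashed line is a constant difference at its mean over samples above the floor. H2-Ea-ps follows the line most closely, with differences of 0.88 to 1.41, and Cd74 in lamina propria CD4 lies farthest above its line.

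CD8 against CD4 samples asks whether the transcripts go with 1 T cell subset. In each of the 4 tissues the CD8 sample read lower than the CD4 sample for Cd74, H2-Aa, H2-Ab1 and H2-Ea-ps. For Cd74 the CD8 minus CD4 difference was -2.88 in the epithelium, -1.39 in the lamina propria, -0.82 in mesenteric and -1.43 in peripheral nodes. For H2-Aa it was -2.90, -0.78, -0.42 and -0.81 in the same tissues, and for H2-Ea-ps -2.90, -0.54, -0.68 and -0.69. The epithelium thus gave the widest gap for all 3, and the other tissues lay within about 1 log2 of each other.

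H2-Ab1 was -0.60 in the lamina propria and -0.66 in mesenteric nodes. In the epithelium and in peripheral nodes its CD8 sample was at the floor, so it was at least 4.17-fold and at least 1.71-fold higher in CD4. H2-Eb1 was -0.70 in the lamina propria and -0.65 in mesenteric nodes, with both subsets at the floor in the other 2 tissues. H2-Dma had no common direction, with -0.18 in the epithelium, 0.51 in the lamina propria, 0.44 in mesenteric and 0.14 in peripheral nodes.

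**Figure D3:**
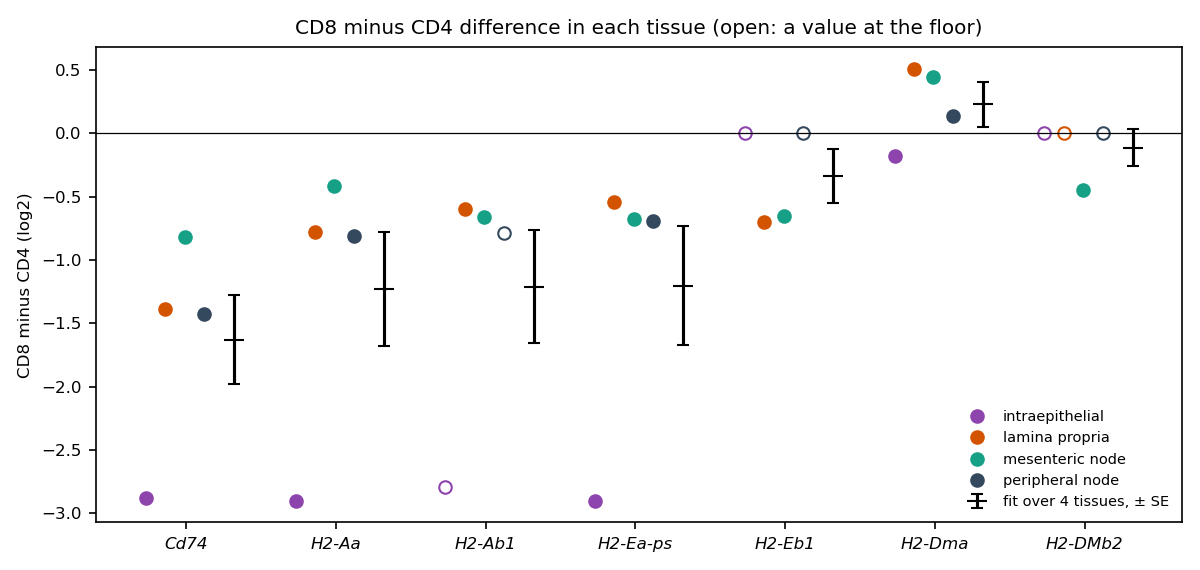
CD8 minus CD4 difference (y axis, log2) of each member (x axis) in each of the 4 tissues (coloured points, open where a value was at the floor), with the fitted difference over tissues and its SE (black). All 4 tissues lie under 0 for Cd74, H2-Aa, H2-Ab1 and H2-Ea-ps, with the epithelium lowest, and H2-Dma lies on both sides of 0.

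Over the 4 tissues Cd74 fell by 1.63 ± 0.35 log2 (SE) in CD8 samples, which averaged 7.87 against 9.50 in CD4 samples (limma with tissue as a block, 8 samples, Benjamini-Hochberg adjusted p = 0.0451). The spread in this test is how the difference varied over tissues, since no sample was repeated. Cd74 was the 1 of 7 members past the adjusted threshold of 0.05, where 14.8% of the 433 genes tested passed in either direction and 9.24% as lower, so the share of members called was near that of all genes. H2-Aa was -1.23 ± 0.45 (adjusted p = 0.149), H2-Ab1 -1.21 ± 0.45 (0.149), H2-Ea-ps -1.20 ± 0.47 (0.156), H2-Eb1 -0.34 ± 0.21 (0.320) and H2-Dma 0.23 ± 0.18 (0.411). The median difference was -1.20 over the members and -0.14 over all genes tested. CD8 and CD4 samples overlapped for every member. The Cd74 call was lost when the lamina propria (adjusted p = 0.204), mesenteric (0.0986) or peripheral samples (0.137) were left out. Over all genes those fits called 8, 13 and 13 of 433, fewer than the full fit. Without the intraepithelial pair, where 64 of the 433 genes passed, Cd74 was -1.21 ± 0.15 (0.0197) and H2-Aa passed as well at -0.67 (0.0419).

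Transcripts of other cell types also differed between the subsets. Over 32 macrophage and monocyte genes, the summed level of those above the floor lay between 27.1 and 505 normalized counts in CD8 samples. It lay between 127 and 1230 in CD4 samples. The highest CD8 sum, in the lamina propria, came from Lyz2 alone (8.98). For 15 dendritic cell genes it lay between 361 and 585 in CD8 and between 523 and 1417 in CD4 samples, and for 15 B cell genes between 75.1 and 154 in CD8 and between 0 and 119 in CD4 samples. Cd83, a dendritic cell maturation marker that activated T cells also carry, fell by 2.86 ± 0.44 in CD8 samples (adjusted p = 0.0197). Together with Bst2, which read 7.78 to 8.91 over the 9 samples, Cd83 made up most of each dendritic cell sum. Neither is a defining marker of dendritic cells here, those being Flt3 and Itgax. Ccr2, a chemokine receptor of monocytes and T cells, fell by 2.50 ± 0.48 in CD8 (0.0321), and Cd79b, a B cell receptor subunit, was 1.82 ± 0.36 higher in CD8 (0.0338). The part of such cells in the Cd74 difference was not tested. In these bulk samples, fewer cells of a type and less RNA per cell cannot be told apart.

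The listed gap between CD8 and CD4 was widest in the epithelium for Cd74, H2-Aa and H2-Ea-ps, and whether gut and node differ in it was tested with an added term. No member passed (limma), where 1.39% of all genes passed at the adjusted threshold. At an unadjusted p under 0.05 there were 0 of 7 members and 94 of the 433 genes. The gut minus node difference of the CD8 minus CD4 gap was -1.01 ± 0.59 for Cd74 (adjusted p = 0.464) and -1.23 ± 0.79 for H2-Aa (0.487). With the lamina propria samples left out, the intraepithelial samples alone stand for the gut, and the spread comes from the 2 node pairs. That fit called 12.0% of all genes, and H2-Ab1 passed at -2.07 ± 0.10 (0.0465) and H2-Ea-ps at -2.22 ± 0.08 (0.0457). With floor values also set to the limits, a setting added after the data were seen, H2-Ab1 was -1.35, H2-Ea-ps -2.22 and H2-Aa -2.29. The epithelium had already been seen to have the widest gap, so these values describe that 1 pair of samples.

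Comparing tissues asks where the class II transcripts of these preparations lie. The lamina propria read higher than peripheral nodes by 2.80 and 2.84 log2 for Cd74, 2.63 and 2.66 for H2-Aa and 2.69 and 2.84 for H2-Ea-ps, over the 2 subsets. For H2-Ab1 it was 2.67 in CD4, and for H2-Eb1 the lamina propria was at least 3.77-fold above peripheral nodes. Both subsets thus gave nearly the same gap, although they differed from each other in level. Against mesenteric nodes the lamina propria read higher by 1.18 and 1.75 for Cd74, 0.88 and 1.24 for H2-Aa, 1.20 and 1.26 for H2-Ab1, 0.77 and 0.91 for H2-Ea-ps, and 1.01 and 1.06 for H2-Eb1. H2-Dma went the other way and read -0.61 and -0.54 against mesenteric and -0.70 and -0.33 against peripheral nodes.

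Against the mean of the other 3 tissues, Cd74 was 2.03 ± 0.40 log2 higher in the lamina propria, with 10.21 against 8.18 (limma, adjusted p = 0.0299), and H2-Eb1 was 1.64 ± 0.24 higher (0.0155). These were 2 of 7 members, where 9.24% of all genes passed as higher and 18.0% in either direction. H2-Ab1 was 1.92 ± 0.52 (0.0690), H2-Aa 1.63 ± 0.52 (0.103), H2-Ea-ps 1.51 ± 0.54 (0.132) and H2-Dma -0.52 ± 0.21 (0.163). With values at the floor set to each sample's limit, H2-Eb1 was 1.18 (0.0632) and no longer passed. Without the peripheral pair neither gene passed (Cd74 0.156, H2-Eb1 0.0747), and without the mesenteric pair Cd74 did not (0.0704). These p-values measure only how a tissue difference varied between the subsets. The contrast of the lamina propria with the other tissues was chosen with earlier results of these data known, so it describes where the transcripts lie.

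Gut against lymph node, with both gut compartments together, gave 0 calls among the 7 members (limma), where 28.9% of all genes passed at the adjusted threshold. At an unadjusted p under 0.05 there were 4 of 7 members and 191 of the 433 genes. Cd74 was 1.24 ± 0.35 (adjusted p = 0.0543), H2-Ea-ps 1.34 ± 0.47 (0.0922) and H2-Aa 1.26 ± 0.45 (0.0944). Without the intraepithelial pair, so lamina propria against nodes, 5 of 7 passed as higher, where 15.5% of all genes did. In that fit Cd74 was 2.14 ± 0.16 higher (0.00451), H2-Aa 1.85 ± 0.14 (0.00451), H2-Ab1 1.998 ± 0.17 (0.00516), H2-Ea-ps 1.80 ± 0.17 (0.00516) and H2-Eb1 1.49 ± 0.25 (0.0184).

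Between the 2 gut compartments the values depended on the subset, which was not tested. Intraepithelial minus lamina propria was -2.55 in CD8 and -1.06 in CD4 for Cd74, -2.24 in CD8 and -0.12 in CD4 for H2-Aa, and -2.10 in CD8 and 0.26 in CD4 for H2-Ea-ps. Intraepithelial CD4 cells therefore read close to lamina propria CD4 cells for H2-Aa and H2-Ea-ps, and intraepithelial CD8 cells read far under lamina propria CD8 cells. Over both subsets 1 of 7 members passed, H2-Eb1 at -1.94 ± 0.30 (limma, adjusted p = 0.0154), where 22.2% of all genes passed and 9.70% as lower. That gene was at the floor in both intraepithelial samples, the bound is at least 1.5-fold higher in the lamina propria, and at the limits the difference was -0.59 (0.438). It also did not pass without the peripheral pair. Cd74 was -1.81 ± 0.49 (0.0623) and H2-Ab1 -1.77 ± 0.63 (0.125).

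Between the nodes, all 7 members had a higher mean in mesenteric than in peripheral samples. For H2-Dma the subsets differed in sign, with 0.21 in CD8 and -0.09 in CD4 samples, both under its residual SD of 0.22. The median difference was 1.355 over the members and 0 over all genes tested. Mesenteric minus peripheral was 1.05 and 1.66 for Cd74, 1.39 and 1.78 for H2-Aa and 1.92 and 1.93 for H2-Ea-ps over the 2 subsets. H2-Eb1 was at least 1.84-fold higher in mesenteric nodes and H2-DMb2 at least 1.75-fold. No gene of the 433 passed (0%, limma). At an unadjusted p under 0.05 there were 20 genes, 4 of them members, and the smallest adjusted p was 0.837.

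**Figure D4:**
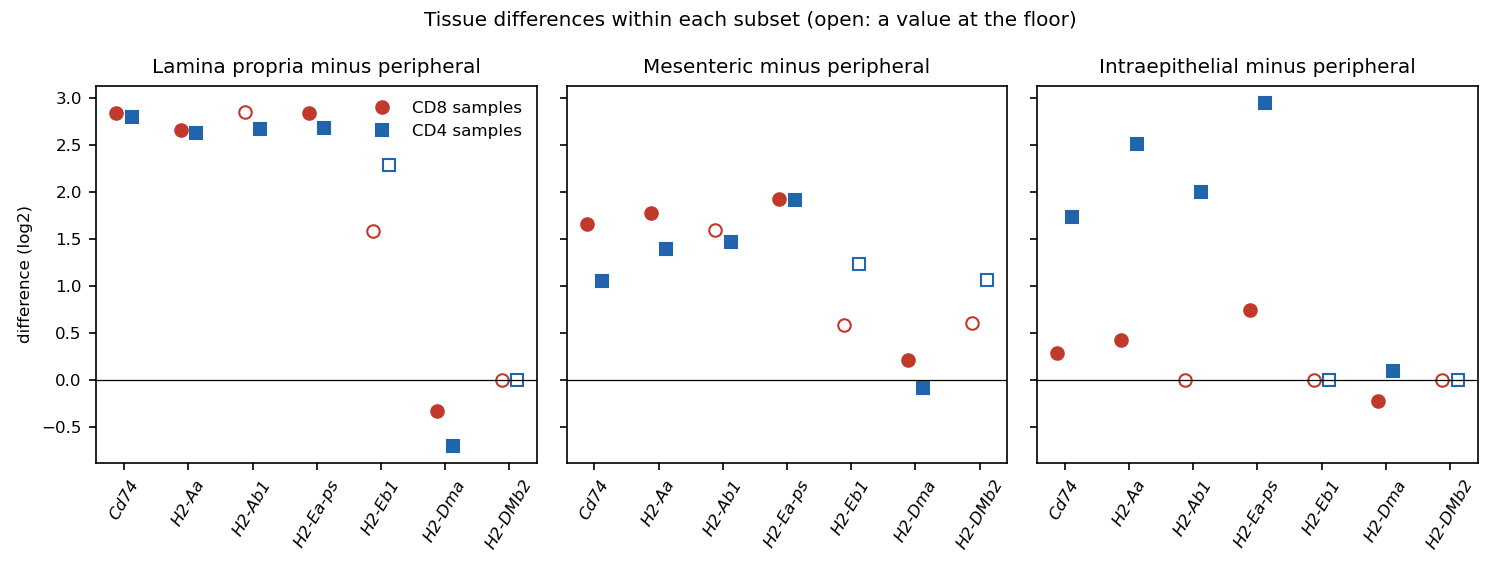
Difference (y axis, log2) of lamina propria, mesenteric node and intraepithelial samples from the peripheral node sample of the same subset, for each member (x axis). Circles are CD8 and squares CD4 samples, and open symbols have a value at the floor. The subsets lie close together in the first 2 panels and apart in the intraepithelial one, where Cd74 is 0.29 in CD8 and 1.74 in CD4, and H2-Ea-ps 0.74 in CD8 and 2.95 in CD4.

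The lamina propria samples also held transcripts of other cells. Summed epithelial genes (11 measured) were 5687 to 7302 normalized counts there and 0 to 573 in the other 3 tissues, and Epcam, an epithelial adhesion molecule, was 9.21 in lamina propria CD8 and 9.48 in CD4. Macrophage and monocyte genes summed to 505 to 1230 in the lamina propria and 27.1 to 679 in the others. Lyz2, the macrophage lysozyme, was 4.89 ± 0.23 higher in the lamina propria (limma, adjusted p = 0.00104). In lamina propria CD8 Lyz2 (8.98) was the 1 gene of the 32 above the floor, so the sum of 505 is that gene alone. In lamina propria CD4 9 of the 32 were above it, the highest being Lyz2 (9.52) and then Ccr2 (7.62). The limit was 5.59 in lamina propria CD8 and 4.34 in lamina propria CD4, so the 2 numbers of genes cannot be compared directly. Cybb (5.58), Ly86 (5.47), Cd68 (5.01), Syk (4.93) and Cd14 (4.41) at their CD4 levels would be listed at the floor in lamina propria CD8. The 10 T cell genes measured summed to 8089 to 8715 in the lamina propria and 11576 to 17412 in the others. Dendritic cell genes, mostly Bst2 and Cd83, were 416 to 1417 in the lamina propria and 361 to 1069 in the others. B cell genes were 89.3 to 117 in the lamina propria and 0 to 154 in the others. Mesenteric against peripheral nodes had 119 to 153 against 54.0 to 75.1 for B cell genes and 523 to 585 against 499 to 523 for dendritic cell genes. The part of these cells in the tissue differences was not tested.

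The defining markers of these cell types read as follows. Of 15 B cell genes 10 were at the floor in all 9 samples, among them Cd79a and Pax5, while Ms4a1 was 5.59 in intraepithelial CD4CD8, 4.88 in mesenteric CD8 and 4.87 in mesenteric CD4. Of 15 dendritic cell genes 8 were at the floor throughout, Flt3 among them, and Itgax, an integrin that some T cells carry, was above it in intraepithelial CD8 alone (5.43). Of 32 macrophage and monocyte genes 23 were at the floor throughout, Csf1r among them, and Cd14 was above it in lamina propria CD4 alone (4.41). That level is under the limits of lamina propria CD8 and of the intraepithelial samples. Cd68, a lysosomal protein of macrophages, was above the floor in 7 samples, with 6.01 in CD4CD8, the floor in CD8 and 6.44 in CD4 cells of the epithelium, and 4.50 to 5.01 in lamina propria CD4 and the node samples. Like Cd68, Cd74, H2-Aa, H2-Ab1 and H2-Ea-ps, some other genes of those cells read higher in intraepithelial CD4CD8 and CD4 than in intraepithelial CD8, and others did not. Irf8, a transcription factor of dendritic cells and B cells, was 7.78 in CD4CD8, 5.86 in CD8 and 7.79 in CD4 cells of the epithelium. Cybb, the phagocyte oxidase subunit, was 5.90 in intraepithelial CD4CD8, at the floor in CD8 and 7.47 in CD4, and Ly86 was 6.69 in CD4CD8, at the floor in CD8 and 6.44 in CD4.

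**Figure D5:**
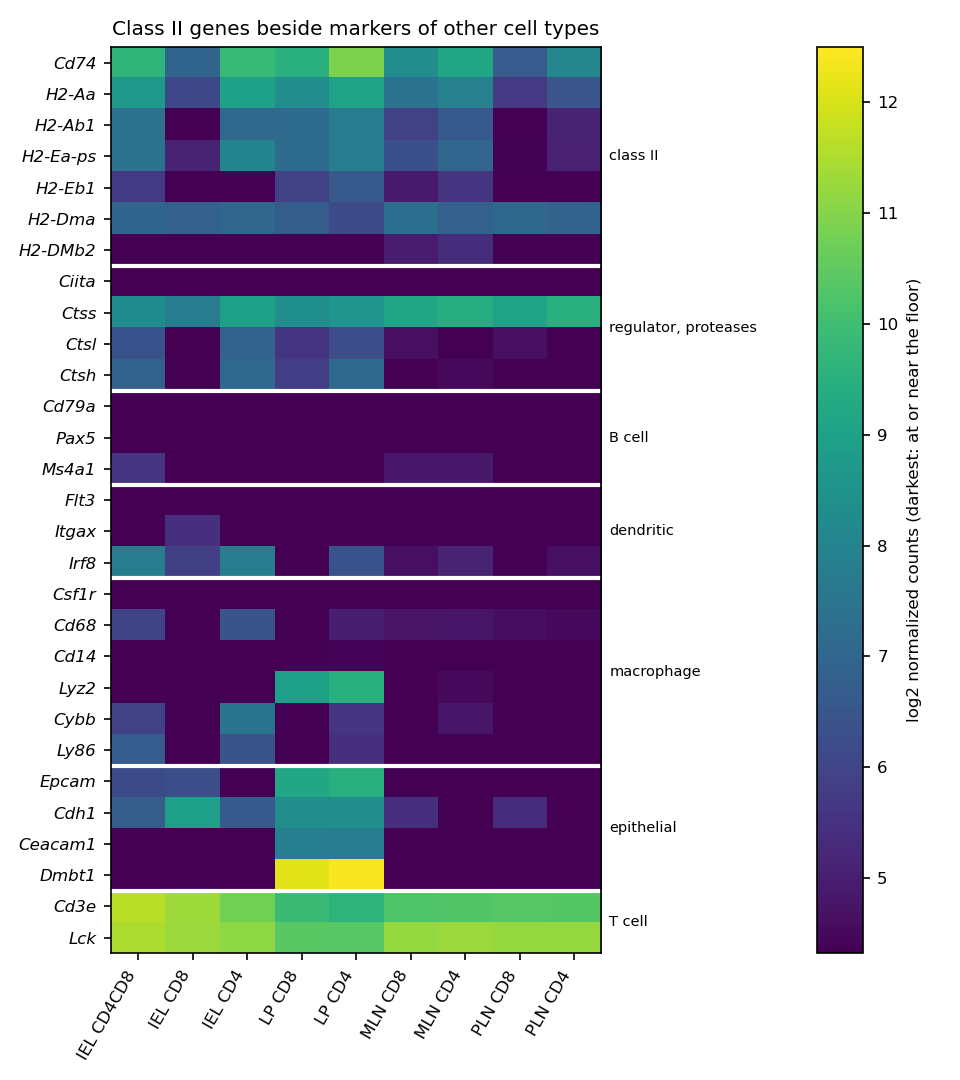
Heat map of log2 normalized counts (colour, darkest at or near the floor of 4.32) of the members, of Ciita and class II proteases, and of marker genes of other cell types and T cells (rows) in the 9 samples (columns). Cd79a, Pax5, Flt3, Csf1r and Ciita are dark in all samples, and epithelial genes and Lyz2 are bright in the lamina propria. Irf8, Cybb, Ly86 and Ctsh are bright in intraepithelial CD4CD8 and CD4 and dark or lower in intraepithelial CD8. Fcer1g, Cd79b, Ccr2 and Cd83, which went otherwise in the epithelium, are not drawn.

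The CD4CD8 sample, 1 library with no counterpart and no test, sat with intraepithelial CD4 and away from intraepithelial CD8. CD4CD8 minus CD8 was 2.72 for Cd74, 2.66 for H2-Aa and 2.33 for H2-Ea-ps, and CD4CD8 was at least 5.06-fold above CD8 for H2-Ab1 and at least 1.59-fold for H2-Eb1. CD4CD8 minus CD4 was -0.16 for Cd74, -0.24 for H2-Aa, -0.57 for H2-Ea-ps and 0.28 for H2-Ab1. By counting error, Cd74 in CD4CD8 (357 counts, 9.53 to 9.83) overlapped intraepithelial CD4 (9.65 to 10.03) and not intraepithelial CD8. H2-Ea-ps in CD4CD8 (76 counts, 7.10 to 7.77) likewise overlapped intraepithelial CD4 (7.65 to 8.37). In CD4CD8 the marker sums were 308 normalized counts for macrophage and monocyte genes, 705 for dendritic cell genes, 176 for epithelial genes and 48.2 for B cell genes.

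The H2-DM genes, whose products load the peptide, did not share the pattern of the chains. H2-Dma, the DM alpha chain, was 6.95 in CD4CD8, 6.84 in CD8 and 7.02 in CD4 cells of the epithelium. Elsewhere it was 6.73 in lamina propria CD8, 6.22 in lamina propria CD4, 7.27 in mesenteric CD8, 6.83 in mesenteric CD4, 7.06 in peripheral CD8 and 6.92 in peripheral CD4. It spanned 1.05 log2, and its lowest sample was the one where Cd74 was highest. H2-DMb2, a DM beta chain, was 4.93 in mesenteric CD8 and 5.38 in mesenteric CD4 and at the floor in the other 7 samples, though a level of 5.38 would also be listed at the floor in intraepithelial CD4, intraepithelial CD4CD8 and lamina propria CD8. Mesenteric CD4 was at least 2.06-fold above lamina propria CD4 for H2-DMb2, the reverse of every class II chain and Cd74. H2-DMb1, a near-identical neighbour whose transcripts the probe may share, was at the floor in all 9 samples, so the split between the 2 is uncertain. No comparison called either H2-DM member.

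Ciita itself was at the floor in all 9 samples, and so was H2-Ob, a beta chain of the DM inhibitor H2-DO. Besides the members, 11 genes of the class II pathway were measured and 7 tested. None passed in CD8 against CD4, with a list median of -0.15. Ctss, the protease that trims the invariant chain, fell by 0.84 ± 0.18 in gut against node (limma, adjusted p = 0.0258), opposite in sign to the fitted gut minus node values of the chains. Cd9, a membrane tetraspanin, fell by 2.40 ± 0.60 in intraepithelial against lamina propria samples (0.0493). It was at the floor in intraepithelial CD4, and at the limits the difference was -1.41 ± 0.28 (0.0219).

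Of 23 regulators and interferon-gamma response genes, 21 were tested. In CD8 against CD4, 1 rose, Psmb8, and 3 fell, among them Irf4, a transcription factor of activated lymphocytes, by 1.63 ± 0.20 (adjusted p = 0.0126), where 14.8% of all genes passed. In the lamina propria against the other tissues 1 rose, Irf4 by 0.97 ± 0.23 (0.0489), and 6 fell, among them Nlrc5, the coactivator of class I genes, by 0.81 ± 0.14 (0.0190), where 18.0% of all genes passed. In intraepithelial against lamina propria samples 7 rose and 1 fell, where 22.2% of all genes passed. The list medians were 0.06 for CD8 minus CD4, -0.22 for lamina propria minus the others and 0.48 for intraepithelial minus lamina propria, beside -0.14, -0.03 and 0 over all genes.

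The genes most like the class II profile were found by Pearson's r over the 9 samples with the mean of Cd74, H2-Aa, H2-Ab1 and H2-Eb1, each centred on its own mean, among 373 genes. They were Sbno2, a transcriptional coregulator (0.892), Jun, a subunit of AP-1 (0.860), Psmd7, a proteasome subunit (0.834), Ctsh, cathepsin H (0.830), and Gpi1, a glycolytic enzyme (0.814). H2-Ea-ps, outside that mean, had r = 0.950. Ctsh was 6.87 in intraepithelial CD4CD8, at the floor in CD8 and 7.11 in CD4, and 5.79 in lamina propria CD8 and 7.13 in lamina propria CD4. The lowest were Hcst, an activating receptor adaptor (-0.824), Cd3d, a T cell receptor chain (-0.806), and Tapbp, the class I loading factor tapasin (-0.773). H2-Dma was most like Nlrc5 (0.878), whose levels ran from 7.79 in lamina propria CD4 to 9.10 in intraepithelial CD4CD8. With Spearman's rho, or over the 8 CD8 and CD4 samples, 3 of the 5 most alike genes were shared with the first list. These correlations share depth, tissue and scaling, and no p is given.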

How the data were processed

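Per the labels' protocols, column-purified total RNA was hybridised to a biotin-bearing capture probe and a reporter probe with a barcode. The deposited table held log2 values of 770 genes in 9 samples. The sources used here do not give the instrument, the authors' scaling or how the floor was set. On the linear scale, values were whole multiples of 1 count (100% of values up to 150 normalized counts, within 0.005 log2) in 4 samples, where the lowest listed value was 20.0 counts. In the other 5 the depth is unknown.

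Members were taken by name. The members, the lists and the contrast of the lamina propria with the other tissues were chosen with earlier results of these data known. The fit was limma 3.58.1 (R 4.3.3), lmFit then eBayes (trend on), applied to the deposited log2 values of the 8 CD8 and CD4 samples, with additive terms for tissue and subset and 3 residual degrees of freedom (prior 1.89). An added subset by gut term left 2. A gene was tested if 2 or more of the 8 samples had it above the floor, and 20 housekeeping genes were dropped, giving 433 genes. Two-sided p-values were adjusted by Benjamini-Hochberg over those genes at 0.05. They measure variation over tissues or subsets, since no sample was repeated. Where a group was at the floor, the mean limit of its samples, taken from the other group's mean, gives the bound. The fit was tested on simulated data. The named genes were the members, the genes of the lists, the 5 non-member genes most alike by Pearson's r and the most negative ones. Sequences are from RefSeq (GRCm38.p6), where 4 members had a promoter that was used. Python 3.11.15, numpy 2.4.6, pandas 2.3.3 and scipy 1.17.1 made the descriptions. Alternatives were centring, the floor, the filter, the trend, the tissue terms and leaving out each tissue. Some genes are not reported here.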

Additional observations from a re-analysis of the deposited data

Results flagged for a closer look

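The intraepithelial minus lamina propria difference of H2-Ea-ps was -2.10 log2 in CD8 samples and 0.26 in CD4 samples, opposite in direction. Each value is from 1 pair of samples, and the difference between the subsets was not tested. The mesenteric minus peripheral difference of H2-Dma was 0.21 in CD8 samples and -0.09 in CD4 samples, and this difference was not tested either. Both H2-Dma values are under its residual SD of 0.22 log2.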

How the results depend on the processing

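CD8 and CD4 samples were paired by tissue, a term of the fits except in the alternatives without it. Beyond that, no paired analysis by replicate number was possible because each tissue and subset has 1 sample. The number of members past the threshold was the same in 6 of 13 alternatives for CD8 minus CD4, 8 of 13 for gut minus node, 7 of 10 for intraepithelial minus lamina propria, 10 of 10 for mesenteric minus peripheral, 7 of 11 for lamina propria minus the others and 10 of 12 for the gut and node difference of the subset gap. For CD8 minus CD4 (1 member) it was 0 with no filter, with no trend (Cd74 adjusted p = 0.0631) and without tissue terms (0.355), and 0 to 2 leaving out a tissue. Over all genes 14 of 750, 52 of 433 and 21 of 433 passed in the first 3 settings, and 8 to 64 leaving out a tissue. Centring each sample on the median of its genes kept Cd74 at -1.48 (0.0484). For gut minus node (0) it was 1 with median centring, where 132 of 433 genes passed, and 3 with floor values at the limits (181 of 433). It was 2 with all values raised to the highest limit (103 of 337 genes) and 1 with genes above the floor in 6 of 8 samples (107 of 317). Leaving out a tissue gave 0 to 5 members and 22 to 133 genes, with H2-Eb1 at -0.45 to 1.49, negative without the lamina propria pair. For intraepithelial minus lamina propria (1) it was 2 with median centring (99 of 433 genes), 0 with raised values (75 of 337), and 0 to 1 leaving out a tissue (26 to 47 genes). For lamina propria minus the others (2) it was 1 with no filter (46 of 750 genes) and 0 to 5 leaving out a tissue (21 to 133 genes). For the gut and node difference (0) it was above 0 only without the lamina propria pair, where the epithelium alone stands for the gut. With floor values also at the limits, a setting added after seeing the data, H2-DMb2 was -1.02 there. The cause was not tested.

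Some values changed sign. With median centring H2-DMb2 was 0.04 for CD8 minus CD4 and H2-Eb1 0.10 for the gut and node difference. At the limits H2-DMb2 was 0.57 for gut minus node. Within CD4 samples H2-Ea-ps was 0.26 for intraepithelial minus lamina propria and H2-Dma -0.09 for mesenteric minus peripheral. For the gut and node difference, leaving out a tissue gave -2.07 to 0.13 for H2-Ab1 and -2.22 to 0.15 for H2-Ea-ps, the upper ends without the intraepithelial pair. It gave -0.38 to 0.33 for H2-Eb1 (0.33 without the lamina propria and 0.30 without the peripheral pair) and -0.47 to 0.22 for H2-Dma (0.22 without the intraepithelial and 0.03 without the mesenteric pair).

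Over all genes, calls ranged over the alternatives from 8 to 73 for CD8 minus CD4 (64 as reported), 22 to 181 for gut minus node (125), 26 to 106 for intraepithelial minus lamina propria (96), 21 to 133 for lamina propria minus the others (78) and 0 to 96 for the gut and node difference (6). The floor limits H2-Eb1, H2-Ab1 and H2-DMb2 most, and 1 sample per group limits every comparison.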
